A study of Oryctolagus cuniculus with 12 samples.

Results

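SAA3, CRP and NOS2 are 3 genes known for their induction in acute inflammation, and their signals were described here probe by probe in the ventricles of fetal rabbit hearts. SAA3 encodes a serum amyloid A, a small apolipoprotein of the acute phase. CRP encodes C-reactive protein, a pentraxin that binds damaged membranes and bacterial surfaces and activates complement. NOS2 encodes the inducible nitric oxide synthase, which makes nitric oxide from arginine. They are 3 of the 591 genes named on the array, and their 13 probes were found by current gene symbol among the 43603 probes of the table, of which 1673 carried a gene name. SAA3 had 3 probes, of which probes 2 and 3 share a transcript annotation, CRP had 5 of 1 transcript and NOS2 had 5 of 1 transcript. SAA3 probe 1 and the CRP probes were matched through a RefSeq transcript accession. SAA3 probes 2 and 3 and the NOS2 probes were matched by the array's gene symbol only.

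In the acute phase, interleukin-1, interleukin-6 and tumour necrosis factor released at a site of injury or infection act on the liver, which then secretes serum amyloid A and CRP into the blood. In rabbits and mice SAA3 is the serum amyloid A known to be made also outside the liver, and in rabbits it is made by stimulated synovial fibroblasts. NOS2 is nearly silent in resting tissue and is switched on by the same cytokines and by interferon gamma in macrophages and, under strong stimulation, in heart muscle cells.

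The study compared 6 hearts of growth-restricted fetuses (IUGR, for intrauterine growth restriction: poor growth in the womb) with 6 control hearts, in 6 numbered pairs of 1 IUGR and 1 control sample. The sample titles call the IUGR group treatment. How growth was restricted, fetal age and the basis of the pairing are not stated by the labels. The labels' protocols, the same for all samples, give snap-frozen ventricles, an input of 500 ng of total RNA labelled with Cy3 and RNA integrity numbers of 9.3 to 9.9, and each sample had 1 single-colour array of its own. The labels do not say that the replicates came from separate litters, so the p-values reflect only how far these pairs spread, which may in part be technical. Heart muscle genes marked the tissue, with CKM, the muscle creatine kinase, at 15.64 ± 0.08 log2 in IUGR and 15.65 ± 0.13 in control (SD, n = 6 each), and 7 of 19 listed heart muscle markers were measured.

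All 13 probes lay at the dim end of the table. Signals are log2 values as deposited, which ran from 1.35 to 15.83, with a median probe mean of 4.61. The mean of each member probe over the 12 hearts was between 2.29 and 3.34, at percentiles 1.12 to 38.1 of the probe means, and 11 of the 13 probes were below the 25th percentile. Brightness also depends on the sequence of a probe, so these positions do not rank the transcripts of the 3 genes. Detection flags were not used here, so a signal at this level was not separated from background.

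The dim end was coarse and noisy. Of the values under 4 log2, 0.315% to 0.428% were distinct within an array, against 36.9% to 41.7% of those over 8 log2. In the range the member probes covered, an array held 62 to 83 distinct values, with median steps of 0.02 to 0.04 and a largest step of 0.12. The SD of the 6 pair differences had a median of 0.70 for probes below the median level and of 0.30 for the others. In bulk tissue, fewer cells of a type and less RNA per cell cannot be told apart.

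The question for each gene was whether its signal differed between growth-restricted and control ventricles. No member probe passed the adjusted threshold of 0.05 in limma fitted with the pair as a block to all probes (adjusted p from 0.982 to 0.993), as 0% of the 43603 probes did. Differences below are IUGR minus control in log2 units, with the SD over n = 6 pairs, and the probes of a gene are numbered from the brightest to the dimmest.

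SAA3 was the only one of the 3 genes whose probes all had the same sign, lower in IUGR, with differences from -0.46 to -0.37. In probe 1, IUGR hearts ran from 2.50 through a median of 3.17 to 3.85, and control hearts from 2.56 through 3.55 to 4.36. The groups overlapped over most of their range, and the IUGR heart was the lower one in 5 of 6 pairs. The difference was -0.42 ± 0.41 (95% interval -0.81 to -0.03), a ratio of 0.747 between the deposited signals, with a limma unadjusted p of 0.0398 and an exact two-sided sign-change p of 0.0938. The sign-change test flips the 6 pair differences in all 64 ways and cannot go below 0.03125.

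In probe 1, the mean of the 2 hearts of a pair ran from 2.53 in pair 2 to 3.92 in pair 4. Pairs 1, 3 and 4 were the brightest in both groups, and this spread between pairs was wider than the difference between the groups. The largest difference was -0.86 in pair 4 and the opposite sign occurred in pair 3, by 0.13.

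SAA3 probe 2 ran in IUGR from 1.87 through a median of 2.44 to 2.82 and in control from 1.89 through 2.92 to 3.94. Its difference of -0.46 ± 0.91 was uneven, from -1.34 in pair 2 to 0.94 in pair 6, and its 95% interval of -1.23 to 0.30 includes 0. Probe 3 ran in IUGR from 1.96 through 2.22 to 3.15 and in control from 2.10 through 2.65 to 3.47. It had the steadiest difference of the 13 probes, -0.37 ± 0.26, with a 95% interval of -0.67 to -0.08, a limma unadjusted p of 0.0201 and an exact p of 0.0625. It was lower in IUGR in 5 of 6 pairs, and pair 5 differed by 0.02.

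Averaged over its 3 probes, SAA3 was lower in the IUGR heart of all 6 pairs, where the means of 1.52% of the 591 named genes were lower in all 6 and 3.05% had 1 sign in all 6. The mean level was 2.60 ± 0.36 in IUGR and 3.02 ± 0.46 in control, and the pair differences ran from -0.74 in pair 1 to -0.03 in pair 3, with a mean of -0.42 ± 0.29. The groups still overlapped, from 2.14 to 3.10 in IUGR and from 2.58 to 3.84 in control. The separate probes had the opposite sign in pair 3 for probe 1, in pairs 3 and 6 for probe 2 and in pair 5 for probe 3.

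**Figure D1:**
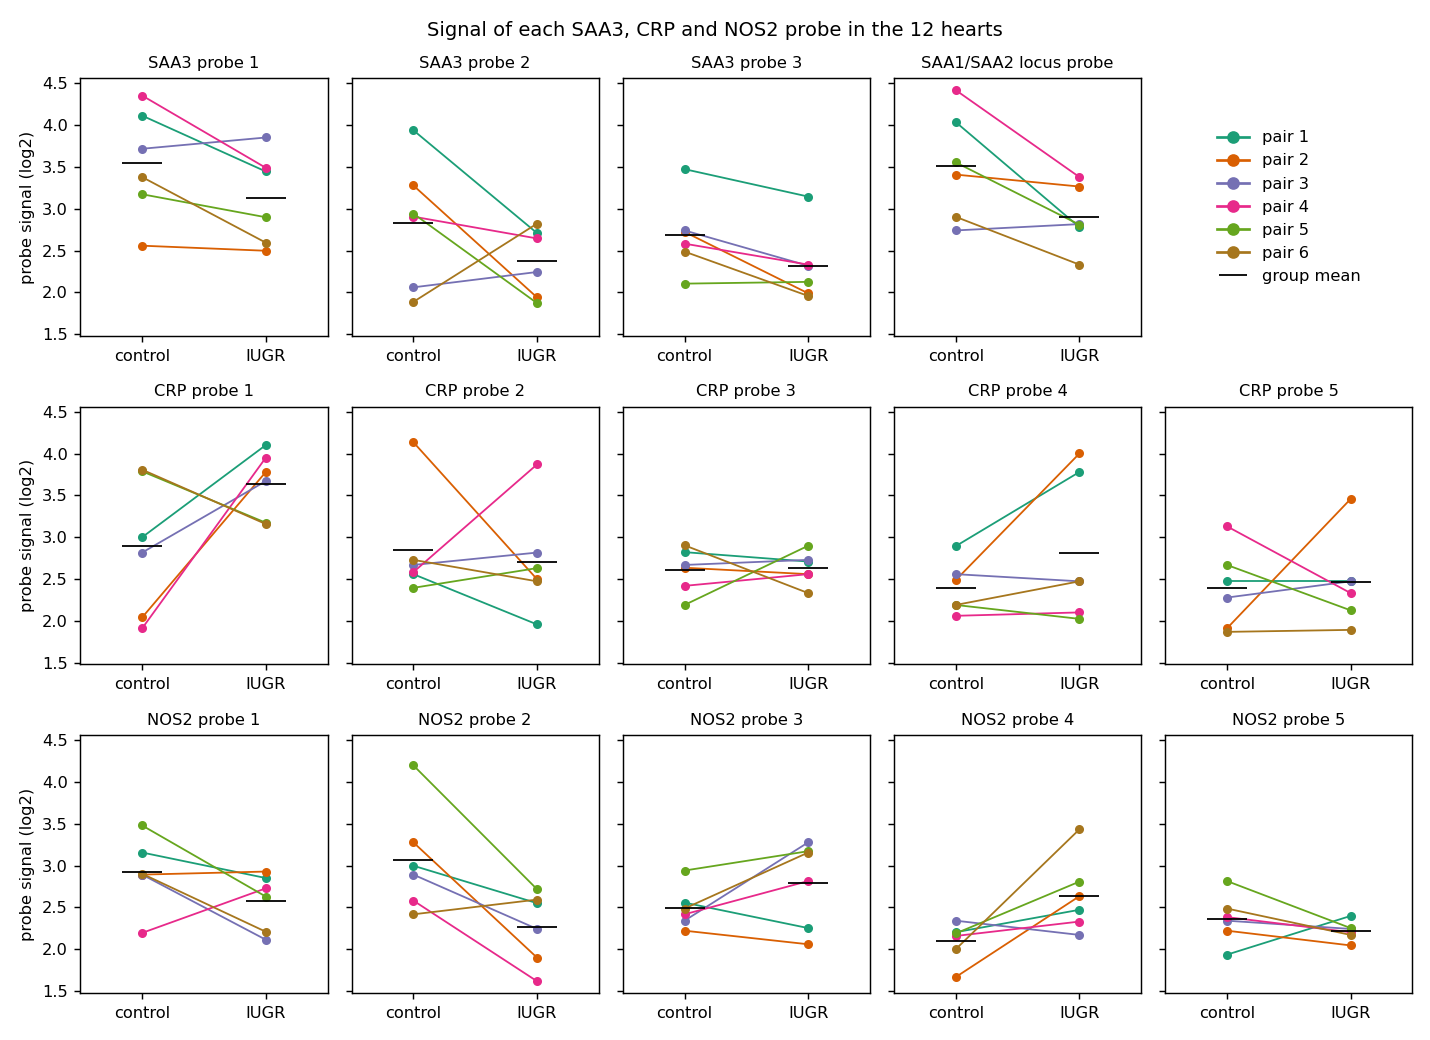
Signal (log2, vertical axis) of each probe in control and IUGR hearts, with 1 line per pair and a bar at each group mean. The SAA3 lines mostly slope down from control to IUGR, the lines of CRP probe 1 run upward in 4 pairs and downward in 2, and the NOS2 probes slope in different directions.

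Near SAA3 in the rabbit genome lies a locus for which the RefSeq gene table gives the synonyms SAA1 and SAA2, the acute-phase serum amyloids made by the liver, and its only probe was also lower in IUGR on average. It ran in IUGR from 2.33 through a median of 2.81 to 3.38 and in control from 2.74 through 3.48 to 4.42. The difference was -0.61 ± 0.51 (95% interval -1.08 to -0.15), lower in 5 of 6 pairs, with a limma unadjusted p of 0.0166, an adjusted p of 0.982 and an exact p of 0.0625. Pairs 1 and 4 were the farthest apart (-1.26 and -1.04), and pair 3 had the opposite sign (0.08), as in SAA3 probe 1. In SAA3 probe 1 the widest were pairs 4 and 6 (-0.86 and -0.79), with pair 1 at -0.67.

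Over the 6 pairs, the differences of the SAA1/SAA2 probe and of SAA3 probe 1 correlated at r = 0.82 (exact permutation p = 0.0556) and rho = 0.71 (exact permutation p = 0.136), and at r = 0.73 without the 2 pairs farthest from the median. With SAA3 probes 2 and 3 the r was 0.25 and -0.52. None of the 3 relations had an adjusted p under 0.05 (exact permutation, lowest adjusted p = 0.167). Over the 12 hearts the levels of the 3 SAA3 probes, in order, correlated with the SAA1/SAA2 probe at r = 0.50, 0.57 and 0.35 (rho 0.29, 0.55 and 0.22), and without the 2 hearts farthest from the median at -0.13, 0.31 and -0.05, so the relations of probes 1 and 3 rest on those hearts and that of probe 2 was weaker without them. The permutation p adjusted over these 3 relations was 0.147, 0.147 and 0.266 for r, and from 0.200 to 0.500 for rho. The RefSeq table lists 2 protein-coding loci and 2 pseudogenes between them. The array measured 1 of these loci, which has no gene name in that table, with a difference of 0.41 ± 1.05 and 3 pairs each way. Probe sequences were not used here, so whether a probe also captures RNA of a related locus could not be checked.

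CRP had the largest difference upward of the 13 probes, in probe 1, and its probes did not share it. In probe 1, the brightest, IUGR hearts ran from 3.16 through a median of 3.73 to 4.10 and control hearts from 1.91 through 2.91 to 3.81. The IUGR hearts were closely grouped (3.64 ± 0.40) and the control hearts were spread (2.89 ± 0.82), and the groups overlapped. Pairs 1 to 4 differed by 1.10, 1.74, 0.86 and 2.04, while pairs 5 and 6 differed by -0.62 and -0.65. The mean of 0.75 ± 1.15 had a 95% interval of -0.21 to 1.70, a limma unadjusted p of 0.106 and an exact p of 0.188.

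The other CRP probes did not repeat that pattern. Probe 2 gave -0.14 ± 0.97, with control replicate 2 at 4.14 and IUGR replicate 4 at 3.87 above all other hearts. Probe 3, with a range of 2.19 to 2.90 over all hearts, gave 0.02 ± 0.42. Probe 4 gave 0.41 ± 0.66, with IUGR replicates 1 and 2 at 3.78 and 4.00 and the other IUGR hearts between 2.02 and 2.47, and it gave 0.19 without pair 2. Probe 5 gave 0.07 ± 0.82, with IUGR replicate 2 at 3.46. Pair 2 is thus among the widest in 4 of the 5 probes, but it is high in IUGR in probes 1, 4 and 5 (1.74, 1.52 and 1.55) and high in control in probe 2 (-1.64). Over the mean of the 5 probes, CRP stood at 2.85 ± 0.29 in IUGR and 2.63 ± 0.11 in control, with a difference of 0.22 ± 0.33, higher in 4 of 6 pairs.

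NOS2 probes differed in direction within the gene, and the probes with the lowest p pointed opposite ways. Probe 1, the brightest, ran in IUGR from 2.11 through a median of 2.68 to 2.93 and in control from 2.20 through 2.90 to 3.48. Its difference was -0.34 ± 0.55 (95% interval -0.83 to 0.14), lower in IUGR in 4 of 6 pairs. Probe 2 ran in IUGR from 1.62 through 2.40 to 2.72 and in control from 2.42 through 2.95 to 4.20. It had the largest difference of the 13 probes, -0.79 ± 0.62 (95% interval -1.34 to -0.25), lower in 5 of 6 pairs, with a limma unadjusted p of 0.0107 and an exact p of 0.0625.

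NOS2 probe 4, one of the dimmest, went the other way. It ran in IUGR from 2.17 through a median of 2.55 to 3.44 and in control from 1.67 through 2.17 to 2.34, so the groups overlapped, with 4 of the 6 IUGR hearts above the highest control heart. Its difference was 0.55 ± 0.58 (95% interval 0.03 to 1.07), higher in 5 of 6 pairs, with a limma unadjusted p of 0.0401 and an exact p of 0.0625. Probe 3 gave 0.30 ± 0.48 and probe 5, whose values spanned 1.94 to 2.82, gave -0.15 ± 0.34. The mean of the 5 probes was 2.50 ± 0.18 in IUGR and 2.59 ± 0.28 in control, with a difference of -0.09 ± 0.22. The 5 probes are annotated to 1 transcript, and what sets them apart was not tested.

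**Figure D2:**
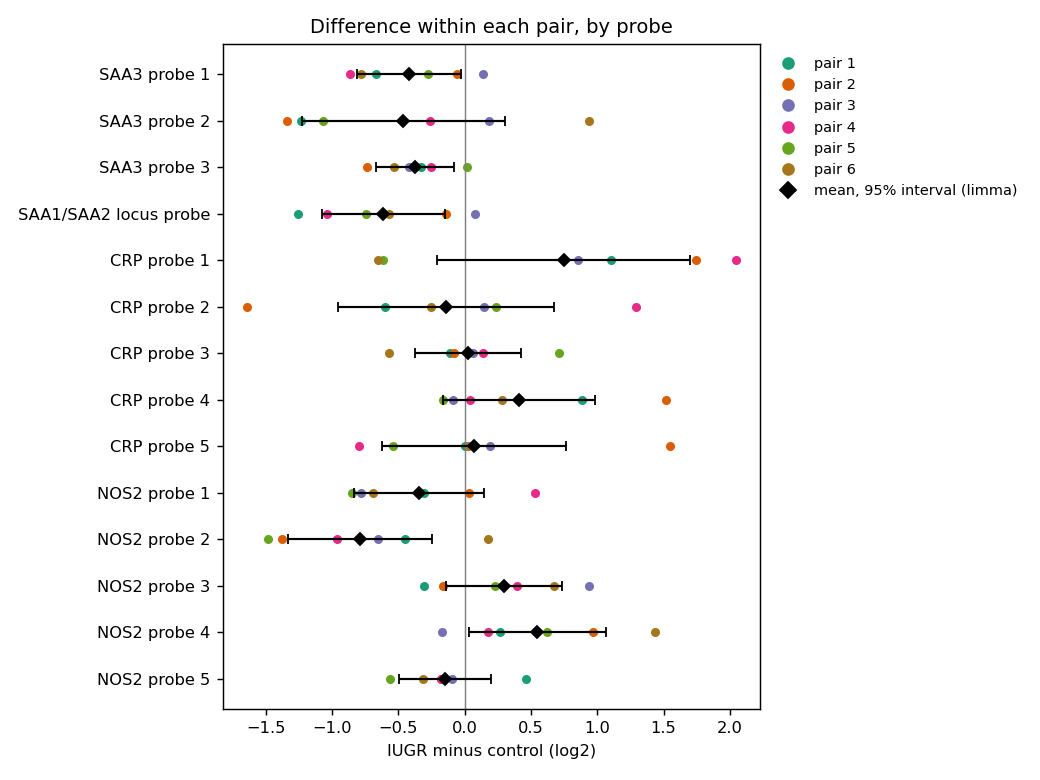
IUGR minus control (log2, horizontal axis) for each probe, with coloured points for the 6 pairs and a diamond with a bar for the mean and limma's 95% interval. The intervals of SAA3 probes 1 and 3, the SAA1/SAA2 probe and NOS2 probe 2 lie below 0, that of NOS2 probe 4 lies above 0, and none passed the adjusted threshold.

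Counted over the 13 probes, 7 differences were below 0 and 6 above. At an unadjusted limma p under 0.05 there were 4 of the 13 probes, SAA3 probes 1 and 3 and NOS2 probes 2 and 4, where 3.58% of all probes were (2.03% higher and 1.55% lower in IUGR). The probe higher in IUGR was NOS2 probe 4. Lower in IUGR in 5 or 6 of 6 pairs were 4 of the 13 probes, against 8.37% of all probes, and higher in 5 or 6 pairs was 1, against 11.7%. No member probe had 1 sign in all 6 pairs, against 2.25% of all probes, and in none of the 13 did the groups fail to overlap, as they did in 0.0505% of all probes. The genes were chosen with earlier results of these data known, so these counts describe the probes and are no separate test. The count of 4 became 2 without the pair as a block, with an intensity trend and a robust prior, or in the ordinary paired test. It was 2 to 4 with 1 pair left out, and 1 without pairs 2 and 6. Without the block, and with the trend and robust prior, 0 SAA3 probes and 2 NOS2 probes remained. The ordinary paired test kept 1 of each gene, and without pairs 2 and 6 the 1 left was of NOS2.

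How far the probes of 1 gene varied together from heart to heart was compared over the 12 hearts. The 3 SAA3 probes correlated with each other at r = 0.25 to 0.57, with a median of 0.56. The 10 combinations of CRP probes had a median r of 0.05 and a range of -0.39 to 0.46, and those of NOS2 a median of 0.09 and a range of -0.38 to 0.55. None of the 23 relations had an adjusted permutation p under 0.05 (lowest 0.459 for r and 0.828 for rho), and 0 had an unadjusted p under 0.05.

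In SAA3, probe 3 correlated with probe 1 at r = 0.56 and rho = 0.57 (permutation p = 0.0592 and 0.0545), and r stayed at 0.56 without the 2 hearts farthest from the median. With probe 2, probe 3 correlated at r = 0.57 but rho = 0.34 (permutation p = 0.0549 and 0.286), and r was 0.14 without the 2 farthest hearts, so that relation rests on those hearts. Probes 1 and 2 correlated at r = 0.25, and at 0.07 without the 2 farthest hearts. The 6 pair differences of the SAA3 probes correlated at r between -0.24 and -0.16. Pair 2 had the largest negative difference in both probe 2 and probe 3 (-1.34 and -0.74) but was near 0 in probe 1 (-0.06).

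**Figure D3:**
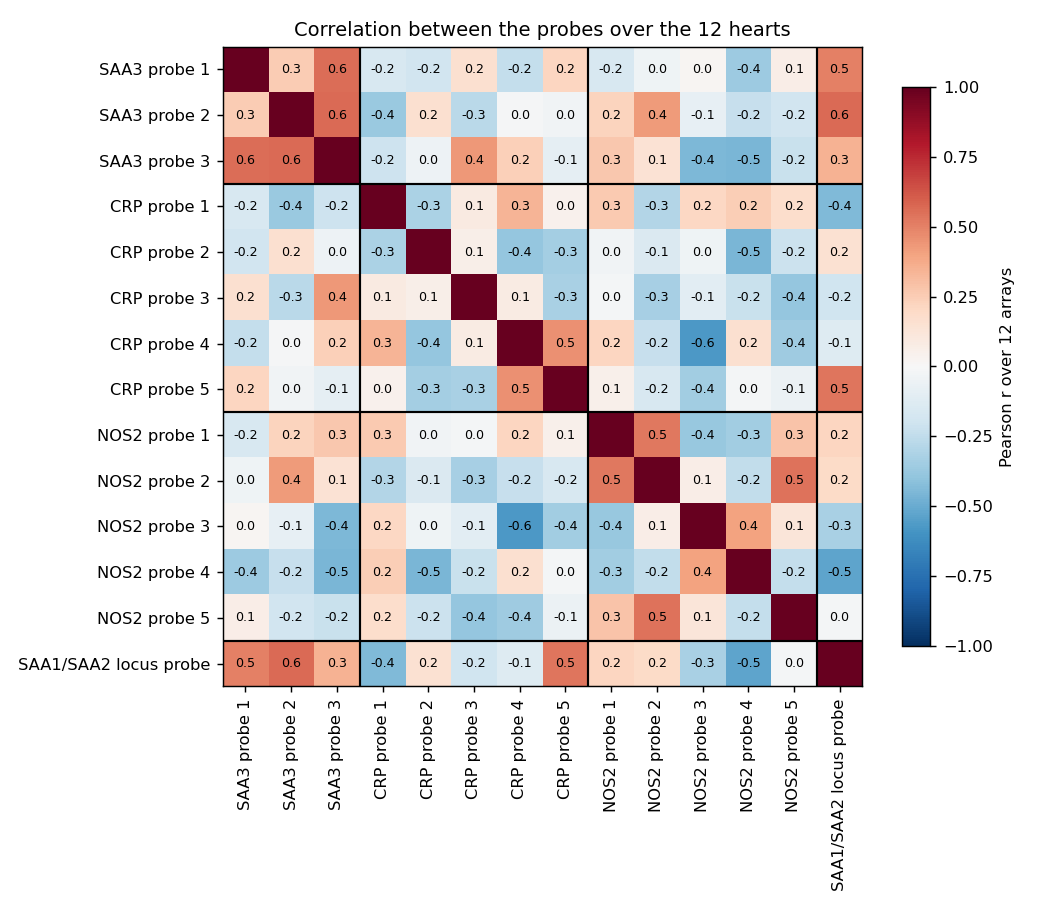
Pearson r over the 12 hearts between all member probes and the SAA1/SAA2 probe, from -1 (blue) to 1 (red), with black lines between the genes. The SAA3 block is red throughout, while the CRP and NOS2 blocks mix both signs.

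Of the other named genes with several probes, the 189 at or above the median probe level had a median r of 0.78 between their probes, with quartiles of 0.48 and 0.93. The 151 genes below it had a median r of 0.02, with quartiles of -0.11 and 0.18. CRP and NOS2 lay inside these quartiles and SAA3 above them. The place of SAA3 depends on few hearts: without the 2 farthest, its 3 relations were at r = 0.07, 0.56 and 0.14. That measure was not computed for the other named genes. A median r as high as that of SAA3 was seen in 14 of the 151 dim genes, 9.27%, and in 0 of the 27 dim genes that also had 3 probes. All probes of a gene with the same sign of difference, as in SAA3, occurred in 46 of the 151 dim genes, 30.5%, and in 6 of the 27 with 3 probes, 22.2%.

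**Figure D4:**
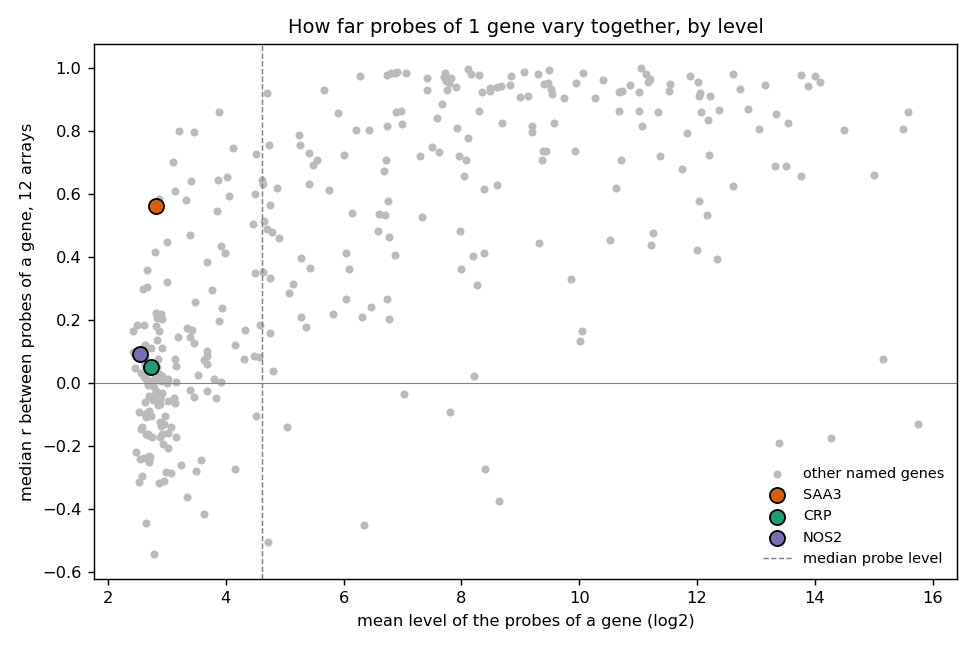
Median Pearson r between the probes of a gene over the 12 arrays (vertical axis) against the mean level of those probes (log2, horizontal axis), 1 point for each named gene with 2 or more probes. Dim genes scatter around 0, with CRP at 0.05 and NOS2 at 0.09 among them and SAA3 at 0.56, and genes above the median probe level are spread widely around a median of 0.78 (quartiles 0.48 and 0.93).

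The named genes whose signal followed each member most closely were sought among 590 genes, each by its brightest probe, as a description with no test. For SAA3 probe 1 they were SFTPB, a surfactant protein of the lung alveolus, with r = 0.86 and rho = 0.90 over 12 hearts, LUM, the collagen-binding proteoglycan lumican, with r = 0.80 and rho = 0.83, and PTH1R, the parathyroid hormone receptor, with r = 0.76 and rho = 0.72. Without the 2 hearts farthest from the median in SAA3, r was 0.85, 0.86 and 0.58. SFTPB ran from 10.45 through a median of 10.87 to 11.99 in IUGR and from 10.33 through 11.42 to 12.51 in control, high in both hearts of pairs 3 and 4 and highest in control replicate 1. Its difference was -0.27 ± 0.72, with 4 of 6 pairs higher in IUGR, and LUM gave -0.19 ± 0.51. The other SAA3 probes followed SFTPB less, at r = 0.30 and 0.45. SCGB1A1, a secretory protein of the airway that was looked up after these values were seen, had an r of -0.59 with SAA3 probe 1 and of 0.28 and 0.13 with probes 2 and 3. Its probe was itself dim (percentile 31.8), and the median r between its 10 probes was 0.11. Over the 6 pairs, the differences of SAA3 probe 1 correlated with those of SFTPB, LUM and SCGB1A1 at r = 0.38, 0.72 and -0.92. The part of lung RNA in the SAA3 signal was not tested.

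For CRP probe 1 the closest genes were KCNA1, a potassium channel (r = 0.68), ADH5, a formaldehyde-oxidising dehydrogenase (r = 0.67), and ERBB2, a growth factor receptor (r = 0.62), and without the 2 farthest hearts r was 0.45, 0.37 and 0.50. For NOS2 probe 1 they were TACC3, a protein of the mitotic spindle (r = 0.80), CACNG1, a calcium channel subunit of skeletal muscle (r = 0.74), and PLB1, a phospholipase (r = 0.70), with 0.60, 0.76 and 0.38 without the 2 farthest hearts. Between the members, the brightest probes of SAA3 and CRP correlated at r = -0.16, those of SAA3 and NOS2 at -0.16 and those of CRP and NOS2 at 0.26.

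The other genes of the response were counted beside the members. Of 29 listed acute-phase plasma proteins, 9 were measured, and beside SAA3 and CRP 4 were lower and 3 higher in IUGR, with a median difference of -0.23 against 0.01 over the 591 named genes, of which 48.4% were lower. The list was not split into proteins that rise and proteins that fall in the acute phase. Its count and median therefore do not measure more or less of that response. None passed the adjusted threshold, and 1, the SAA1/SAA2 locus, had an unadjusted limma p under 0.05, where 4.06% of the named genes did. AHSG, the fetal liver glycoprotein fetuin-A, gave -1.13 ± 2.01 at 7.76 ± 1.99 against 8.89 ± 1.76, ITIH3, a heavy chain that binds hyaluronan, -0.37 ± 1.36 and RBP4, the retinol carrier, -0.23 ± 1.24. HPX, the haem scavenger haemopexin, gave 0.16 ± 0.94, ITIH4 0.08 ± 0.83 and TF, transferrin, 0.00 ± 0.50 (-0.04 over the mean of its 5 probes). For each of these 6 genes the SD over the pairs exceeded the difference.

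Hepatocyte markers, 3 of which are also on the acute-phase list (AHSG, ITIH3 and TF), were lower in IUGR in 5 of 6 measured (of 16 listed), with summed linear signals of 528 to 1888 in IUGR and 695 to 4740 in control. APOB gave -1.10 ± 2.38, with 1 of its 3 probes of that sign, -0.27 over their mean and the highest control heart at 8.07. VTN gave -0.34 ± 0.97 at percentile 18.9, and SERPINF2 -0.29 ± 1.37 with 3 pairs each way. Of the 6 markers, 4 lay below the median probe level. The part of these markers in the SAA3 and CRP signals was not tested. The count depended on pair 6: without it 2 of the 6 were lower, and the acute-phase genes became 3 lower and 4 higher, with a median of 0.08. Without pairs 2 and 6, a choice made after seeing the data, the acute-phase genes were 2 lower and 5 higher. In the same setting SAA3 probe 1 was at -0.42, probe 2 at -0.60 and probe 3 at -0.25. The SAA3 probe mean was then at -0.42, with a limma 95% interval of -0.84 to 0.002.

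Among the inducers and sensors of the response, 9 of 26 listed genes were measured, 7 lower and 2 higher in IUGR with a median of -0.19, and 0 had an unadjusted p under 0.05. TLR2, the receptor for bacterial lipoproteins, gave -0.55 ± 1.00 in 5 of 6 pairs lower and in 3 of 3 probes. The cytokines themselves were mixed and mostly dim: TNF, tumour necrosis factor, gave 0.61 ± 1.13, with 2 of its 5 probes of that sign, IL6, interleukin-6, -0.38 ± 1.78 and IL1B, interleukin-1 beta, -0.26 ± 0.91. IL1RN, the interleukin-1 antagonist, gave -0.19 ± 0.73, CD14, the co-receptor for endotoxin, -0.17 ± 0.50, TLR4, the endotoxin receptor, 0.08 ± 0.49, and its partner LY96 -0.05 ± 0.47. IL1A, interleukin-1 alpha, gave -0.19 ± 0.72. These values are of the brightest probe of each gene, and over the mean of all probes TNF gave 0.07, IL1B -0.04 and LY96 0.05, the last with the opposite sign. Without pair 6 the median of the 9 genes was -0.01, with 6 lower.

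Around NOS2, 3 of 19 listed genes of nitric oxide and arginine handling were measured. NOS1, the neuronal synthase, gave -0.17 ± 0.87 at the dim end of the table, and CAV1, the caveolin that binds nitric oxide synthase in membranes, was bright at 13.72 ± 0.24 in IUGR and 13.83 ± 0.13 in control, with -0.11 ± 0.32. Of the receptors and scavengers for serum amyloid A and CRP, 4 of 13 were measured, 2 lower and 2 higher. FPR1, the formyl peptide receptor of phagocytes, gave -0.89 ± 1.63, SCARB1, the scavenger receptor that takes up high-density lipoprotein, -0.11 ± 0.22, CD36, a scavenger and fatty acid receptor, 0.07 ± 0.24, and OLR1, a receptor for oxidised lipoprotein, 0.21 ± 1.50. None passed the adjusted threshold in limma (adjusted p = 0.982 for FPR1).

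Of 28 listed cytokines and attractants of leukocytes, 7 were measured, 5 lower and 2 higher in IUGR, with a median of -0.09. The chemokine CCL2, listed on the array as MCP-1, gave -0.45 ± 1.04, with 3 pairs each way. Its 5 probes all had that sign, but they varied together (median r of 0.98) and are not separate evidence. VCAM1, an adhesion molecule of vessels, gave -0.15 ± 0.21, IL18 -0.03 ± 1.85 and SELP, P-selectin, -0.28 ± 0.67. PTGS2, the inducible prostaglandin synthase, gave -0.09 ± 0.59 by its brightest probe and -0.66 over the mean of its 3 probes. IL10, an inhibitor of inflammation, gave 0.17 ± 0.80 and SELE, E-selectin, 0.17 ± 2.93. SELE shows how far 1 heart can go, with control replicate 2 at 9.85 and the other control hearts from 2.30 to 2.95. Macrophage markers were measured for 2 of 10, both lower (CD14 and MSR1, median -0.12), and lymphocyte markers for 3 of 11, all higher (CD3E, CD4 and CD5, median 0.17). MSR1 gave -0.07 ± 0.65, CD3E 0.20 ± 0.65, CD4 0.10 ± 0.52 and CD5 0.17 ± 0.66, each with an SD above the difference. MSR1 and CD3E were dim (percentiles 13.7 and 2.2), with 3 pairs each way. Without pair 2 the macrophage markers were 1 lower and 1 higher, and the lymphocyte markers 1 lower and 2 higher. No neutrophil marker of the 12 listed was measured.

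**Figure D5:**
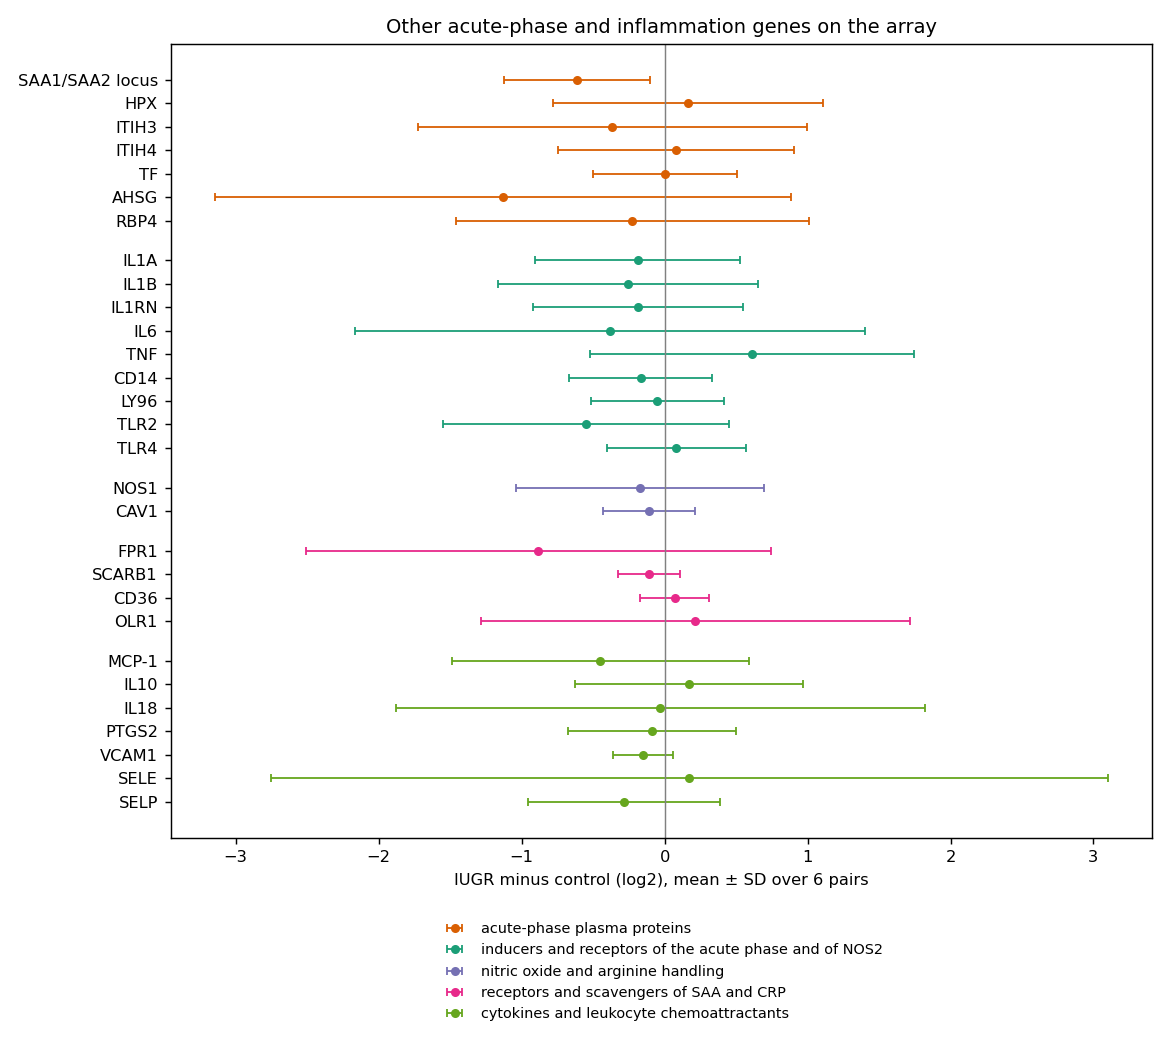
IUGR minus control (log2, horizontal axis) for the other measured genes of the 5 lists, each by its brightest probe, as the mean with a bar of 1 SD over 6 pairs, coloured by list. The bar of the SAA1/SAA2 locus, at -0.61 ± 0.51, is the one that does not reach 0.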

How the data were processed

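The deposited table holds 1 log2 signal per probe and array, made by the authors with RMA, as the submitters' processing notes name it without a version. The log base was taken as 2 because the highest value is 15.83. Scanner software, background method and probe filter: not given in the sources used here. Values were used as deposited. Probe symbols were updated through RefSeq transcript accessions (1402 probes), symbols (238) or synonyms (33), and no genome or probe sequence came with the data. All 12 arrays entered limma 3.58.1 in R 4.3.3 with the pair as a fixed block, Benjamini-Hochberg over 43603 probes; the mean of a gene's probes was fitted as an added row. Correlations were tested with 100000 permutations. Precision is limited by having 6 pairs of arrays: standard errors of the member probes were 0.13 to 0.40. The labels number the pairs, and deviations from the group means correlated within pairs at 0.129 to 0.254. The members and lists were chosen with earlier results of these data known. Genes were named by rule: all member probes, of each list the measured members, at most the 6 brightest where there are more plus those with 1 sign in all pairs, the measured cell type markers, and 3 genes most like each member. Further genes of the 3 lists with more than 6, and SCGB1A1, were added after the values were seen. Alternatives were the block, a level filter, an intensity trend, quantile normalisation, an ordinary paired test, other probes, and pairs left out.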

Additional observations from a re-analysis of the deposited data

Results flagged for a closer look

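Hearts far from the 5 others of their group were sought by the gap to the nearest heart as a share of the group's range, in 84 groups, of which 11 had such a heart. Chance gives about 5% of groups, and 3 of the 26 groups of member probes had one. SAA3 probe 3 stood at 3.15 log2 in IUGR replicate 1, with the other IUGR hearts from 1.96 to 2.33. CRP probe 2 stood at 4.14 in control replicate 2 (others 2.39 to 2.73) and CRP probe 5 at 3.46 in IUGR replicate 2 (others 1.89 to 2.47), and without pair 2 the differences of these probes turned sign, to 0.16 and -0.22.

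Among the other genes, control replicate 6 stood apart in ITIH3 at 7.12 (others 2.34 to 3.41), in TF at 10.08 (others 8.91 to 9.19) and in IL6 at 5.76 (others 2.25 to 3.53). SELE stood at 9.85 in control replicate 2, IL18 at 7.26 in control replicate 1 (others 3.42 to 4.84) and IL1RN at 8.40 in control replicate 4 (others 6.79 to 7.21). In IUGR, CAV1 was low at 13.27 in replicate 2 (others 13.67 to 13.90) and CD36 at 8.64 in replicate 6 (others 9.40 to 9.55).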

How the results depend on the processing

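No probe passed the adjusted threshold in limma or the ordinary paired test under any alternative, pairs 2 and 6 left out included (a choice made after seeing the data), and the fit with no replicate block changed no call; the lowest adjusted p was 0.897, without pair 3. Unadjusted p was under 0.05 for 1562 probes with the paired block, 857 without it and 624 among the 21802 probes at or above the median level, where no member is found; fewer probes tested explains part of the last, and the cause of the other was not tested. With 1 pair left out, SAA3 probe 1 ran from -0.53 to -0.33, CRP probe 1 from 0.49 to 1.03 and NOS2 probe 1 from -0.52 to -0.24. CRP turned to -0.14 with probe 2 in place of probe 1, and NOS2 to 0.30 and 0.55 with probes 3 and 4. Differences close to 0 turned sign with pairs left out: CRP probe 2 ran from -0.42 to 0.16 with 1 pair left out and was 0.27 without pairs 2 and 6, CRP probe 5 ran from -0.22 to 0.24 and was -0.29 without them, and CRP probe 3 ran from -0.11 to 0.14, with a median pair difference of -0.0080. Values kept their sign but moved over 1.5 times with 1 pair left out in SAA3 probe 2 (-0.74 without pair 6 to -0.29 without pair 2), CRP probe 4 (0.19 without pair 2 to 0.53), NOS2 probe 3 (0.17 without pair 3 to 0.42) and NOS2 probe 5 (-0.27 without pair 1 to -0.06 without pair 5). The block, the variance prior and the ordinary paired test leave every difference as it is by construction and bear only on its p. The acute-phase list ran from -0.50 to 0.08 and was 0.16 without pairs 2 and 6, and the receptor list ran from -0.21 to 0.01. Signal near the dim end limits all 13 probes.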

Other observations

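Outside the acute phase, most measured markers of heart muscle, vessel lining and red blood cells were higher in IUGR on average, with RYR2 and CKM of heart muscle the exceptions. KDR, an endothelial receptor for vascular growth factor, was higher in the IUGR heart of all 6 pairs, by 0.43 ± 0.30. HBA, the haemoglobin alpha chain, was higher by 0.41 ± 0.31, also in all 6, where 2.25% of all probes had 1 sign in all 6 pairs. TRDN, triadin of the calcium release complex, gave 0.50 ± 0.38, with 3 of its 5 probes of that sign and 0.19 over their mean, and KCNIP2, a potassium channel subunit, 0.55 ± 0.57. None passed the adjusted threshold in limma (adjusted p = 0.982 for each). KDR, HBA, TRDN and KCNIP2 were those of these markers with an unadjusted limma p under 0.05, where 4.06% of the named genes were. In heart muscle MYH6 gave 0.21 ± 0.42, NPPA 0.76 ± 1.97, HRC 0.33 ± 0.64, RYR2 -0.13 ± 0.21 and CKM -0.01 ± 0.16. VWF and THBD of endothelium gave 0.12 ± 1.13 and 0.03 ± 0.50, and BPGM of red blood cells 0.14 ± 0.26. For each of these the SD over the pairs exceeded the difference. Of the measured markers 5 of 7 for heart muscle, 4 of 4 for endothelium and 2 of 2 for red blood cells were higher in IUGR, as were 305 of the 591 named genes. Without pair 2 the endothelial markers were 2 higher and 2 lower, and the other 2 counts stayed as they were. Summed linear signals overlapped between the groups, at 25161 to 49144 in IUGR and 15643 to 35436 in control for the red blood cell markers.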
